A study of Mus musculus with 9 samples.

Results

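The 10 genes described here encode products of macrophages that take up lipid and cell debris and take part in tissue repair: *Spp1*, *Lgals3*, *Igf1*, *Gdf3*, *Gdf15*, *Gpnmb*, *Trem2*, *Cd9*, *Cd63*, and *Fabp5*. They were chosen by symbol, with earlier results of these data known. Shares of members called are therefore set beside those of all genes as description only. All 10 were found among the 50559 genes listed in each library and passed the filter on low counts. RNA-Seq was performed on CD45+CD11b+ cells (leukocytes carrying a myeloid surface integrin) sorted from quadriceps of *mdx* mice, a strain that lacks dystrophin and models Duchenne muscular dystrophy. The mice received in their drinking water either vehicle, the mineralocorticoid receptor antagonist spironolactone, or the glucocorticoid prednisolone over 7 days, and muscle was taken at an age of 4.5 weeks, within the early wave of muscle necrosis and inflammation. Each group had 3 libraries, and each library pooled the quadriceps of 3 mice, which makes the pool, rather than the animal, the unit of replication. All groups carried the *mdx* mutation, no healthy strain was sequenced, both sexes were used, and the sexes within each pool are not given. Per the study's methods, the prednisolone pools together held fewer males and more females than those of either other group, which had the same numbers as each other. Mean levels in the vehicle, spironolactone, and prednisolone groups were 348, 386, and 364 CPM (normalized counts scaled to library size) for *Xist*, transcribed from the inactive X chromosome, and 23.3, 20.2, and 23.5 CPM for the Y-linked *Ddx3y*, and the part of sex in the results was not tested. The comparisons ask how each drug changed these transcripts relative to vehicle and how the drugs differed from each other. The 3 comparisons share libraries and are therefore not independent of each other.

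Macrophages that clear dying muscle fibers face a load of membrane lipid, and the program they switch on resembles that of lipid-associated macrophages in adipose tissue and of microglia near damage. TREM2 is a surface receptor for lipids and lipoproteins that signals through the adaptor TYROBP, and genes such as *Spp1*, *Gpnmb*, *Lgals3*, *Cd9*, *Cd63*, and *Fabp5* are commonly expressed with it. In regenerating muscle, macrophages also supply growth factors to satellite cells and fibers, among them IGF1 and the TGF-β family member GDF3, while GDF15 is a distant member of that family that is induced by cell stress.

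DNA upstream of the gene is shown for the surface molecules *Trem2*, *Cd9*, and *Gpnmb*. The RefSeq start of *Trem2* is also its first annotated base on GRCm39, while those of *Gpnmb* and *Cd9* lie 26 and 55 bases inside the annotated gene, and these bases were cut from the printed windows, leaving 224 bases for *Gpnmb* and 195 for *Cd9*. The *Cd9* stretch lies in an exon of *Gm26728* on the opposite strand. *Trem2* and *Cd9* are also the surface molecules that passed the test in opposite directions between the drugs. The sequences are from RefSeq (GRCm38.p6), read 5′ to 3′ on the strand of the gene, and were placed on GRCm39 by an exact match of the whole window. They lie at chr17:48653179-48653428 (plus strand) for *Trem2*, at chr6:125471779-125471973 (minus strand) for *Cd9*, and at chr6:49013202-49013425 (plus strand) for *Gpnmb*. Capitals mark matches to 5 short motifs searched on both strands.
Trem2: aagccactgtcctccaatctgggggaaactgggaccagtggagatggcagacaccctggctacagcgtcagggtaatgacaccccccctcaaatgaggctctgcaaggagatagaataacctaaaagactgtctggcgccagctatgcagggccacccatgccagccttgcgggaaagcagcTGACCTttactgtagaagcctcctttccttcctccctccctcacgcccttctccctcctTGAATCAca
Cd9: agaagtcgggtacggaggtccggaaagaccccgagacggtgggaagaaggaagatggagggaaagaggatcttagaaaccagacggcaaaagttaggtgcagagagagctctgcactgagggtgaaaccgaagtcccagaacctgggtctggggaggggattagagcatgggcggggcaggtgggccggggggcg
Gpnmb: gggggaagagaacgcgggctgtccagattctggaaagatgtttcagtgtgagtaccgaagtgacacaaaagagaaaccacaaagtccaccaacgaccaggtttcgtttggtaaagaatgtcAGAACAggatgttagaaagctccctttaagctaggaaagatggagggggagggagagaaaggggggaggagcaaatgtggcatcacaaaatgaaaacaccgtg

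The motifs were the E-box of MiT/TFE factors (CACGTG), the AP-1 site (TGANTCA), a composite ATF4 and C/EBP site (TGATGNAAT), the glucocorticoid receptor hexamer (AGAACA), and the nuclear receptor hexamer (AGGTCA). The search covered the 250 bases before each RefSeq start, which gave 10 windows for 8 members; *Fabp5* and *Gdf3* had no entry. The *Trem2* window held an AP-1 match from -9 to -3 and a nuclear receptor hexamer, read on the opposite strand as TGACCT, from -68 to -63. Positions are counted from the RefSeq start, which for *Gpnmb* and *Cd9* lies beyond the last printed base. The *Gpnmb* window held a glucocorticoid receptor hexamer from -129 to -124. In the window of *Igf1*, an AP-1 match lay from -37 to -31 and a nuclear receptor hexamer from -161 to -156. *Gdf15* had 2 windows, with a nuclear receptor hexamer from -55 to -50 in one and an E-box from -83 to -78 in the other. The windows of *Spp1*, *Lgals3*, *Cd9*, and *Cd63* held none of the 5 motifs, and no matches overlapped. The windows of *Spp1*, *Lgals3*, *Igf1*, *Gdf15*, and *Cd63* lie inside the genes as annotated on GRCm39, since their RefSeq starts are 812 and 1893 bases (*Spp1*), 6109 bases (*Lgals3*), 3331 bases (*Igf1*), 6431 and 6792 bases (*Gdf15*), and 13686 bases (*Cd63*) past the first annotated base of the gene. Of the 250 bases of each of these windows, 128 (*Lgals3*) to 250 lie in annotated exons. Matches in these windows, or their lack, describe DNA before the RefSeq starts and not before the first annotated base. Which starts the sorted cells use was not tested. Among 32851 such windows of mouse genes, 6.02% held the E-box, 6.75% the AP-1 site, 0.816% the composite site, 16.1% the glucocorticoid receptor hexamer, and 14% the nuclear receptor hexamer. These matches describe letters only.

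Libraries held 31469815 to 32943512 gene counts, and 16618 genes were tested. Libraries of the same group differed by far more than counting error (chi-square over its degrees of freedom from 18.7 to 61.4). The sorted population carried its defining genes, with *Ptprc* and *Itgam* summing to 1523 to 2146 CPM and 6 macrophage genes to 5872 to 6875 CPM in every library. Transcripts of other cells were also present, and no gene of the marker lists was at 0 in every library. The sum of 6 neutrophil genes set vehicle replicate 3 (2240 CPM) and spironolactone replicate 3 (1617 CPM) apart from the other libraries (230 to 659 CPM). Each call of a member or companion gene that was lost without 1 of these libraries is named. For calls of other marker genes, such losses are not given. Of the members, 8 share exon bases with another annotated gene (88 bases for *Cd63* to 433 for *Trem2*), and whether reads were counted by strand is not given in the sources used here. In these bulk libraries, fewer cells that express a gene and less RNA per cell cannot be told apart.

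Levels differed widely among the members. On the TPM scale, which divides by gene length, *Spp1* was among the most abundant transcripts, from rank 2 to rank 9 across the 9 libraries, at 8354 to 18380 TPM. *Lgals3* followed at ranks 7 to 13 and *Gpnmb* at ranks 16 to 36. The tetraspanin *Cd9* lay at ranks 97 to 187, *Fabp5* at 169 to 373, *Trem2* at 278 to 406, and *Cd63* at 411 to 605. *Igf1* was at 69.1 to 107 TPM and *Gdf3* at 4.97 to 15.2 TPM. *Gdf15* had the largest ratio of highest to lowest library among the members (5.63 in CPM). It ran from 61.3 TPM (rank 2517) to 343 TPM (rank 417). The 10 genes took 1.65% to 2.32% of all gene counts in a library.

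**Figure D1:**
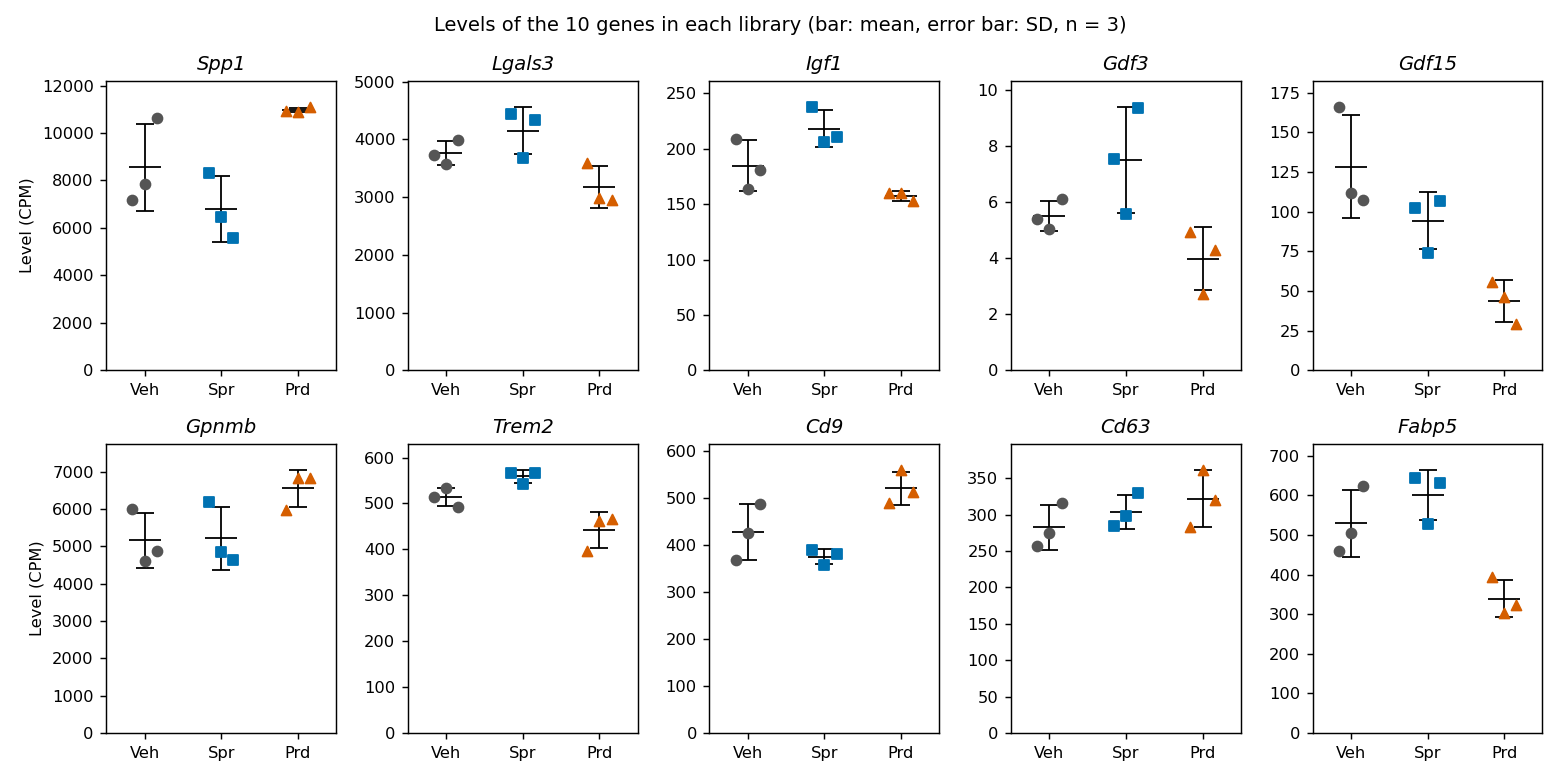
Level of each gene (y axis, CPM) in the 9 libraries, by vehicle (Veh, gray circles), spironolactone (Spr, blue squares), and prednisolone (Prd, orange triangles). Each point is 1 library, the bar is the group mean, and the error bar is the SD. *Gdf15* fell from a mean of 128 CPM with vehicle to 43.8 CPM with prednisolone, and the prednisolone libraries of *Fabp5* lay below all others.

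Of the 5 secreted factors, 1 passed the test against vehicle with prednisolone (*Gdf15*) and 3 between the drugs (*Spp1*, *Igf1*, and *Gdf3*). Among all 16618 genes tested, 1.76% and 5.17% passed in these 2 comparisons. *Spp1* encodes osteopontin, a matrix-bound cytokine that binds integrins and CD44 and is abundant in dystrophic muscle (GRCm39 chr5:104582165-104589235, plus strand). *Spp1* measured 7169, 7836, and 10647 CPM in vehicle replicates 1 to 3, 8329, 6473, and 5584 CPM in spironolactone replicates, and 10948, 10888, and 11085 CPM in prednisolone replicates. All prednisolone libraries lay above all others, and their spread was small, with a coefficient of variation of 0.920% against 21.6% with vehicle and 20.6% with spironolactone. *Spp1* was 1.61-fold lower with spironolactone than with prednisolone (log2 fold change -0.69 ± 0.16 SE, edgeR adjusted *P* = 0.0274). Against vehicle, the values were 0.36 ± 0.16 for prednisolone (adjusted *P* = 0.325) and -0.33 ± 0.16 for spironolactone (adjusted *P* = 0.558). The call between the drugs was lost without spironolactone replicate 2 (adjusted *P* = 0.0926) or 3 (0.120), or without prednisolone replicate 1 (0.0896), 2 (0.0891), or 3 (0.0762). With no filter beyond 1 count, *Spp1* was called higher with prednisolone than with vehicle (adjusted *P* = 0.0313). *Spp1* shares 362 exon bases with *Gm42793* on the same strand.

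*Lgals3* encodes galectin-3, a lectin that binds damaged membranes and glycoproteins (chr14:47605208-47623624, plus strand). *Lgals3* measured 3737, 3576, and 3995 CPM with vehicle, 4437, 3685, and 4329 CPM with spironolactone, and 3598, 2984, and 2947 CPM with prednisolone. The spironolactone libraries all lay above the prednisolone libraries, and the vehicle libraries overlapped both. No comparison of *Lgals3* passed the test: 0.39 ± 0.11 for spironolactone against prednisolone (adjusted *P* = 0.0645), -0.25 ± 0.11 for prednisolone (adjusted *P* = 0.340), and 0.14 ± 0.11 for spironolactone (adjusted *P* = 0.764). *Lgals3* was called between the drugs without vehicle replicate 1 (adjusted *P* = 0.0319), by DESeq2 (0.0144), with no filter beyond 1 count (0.0220), and with the replicate block (0.0442).

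*Igf1* encodes insulin-like growth factor 1, which promotes growth of muscle fibers and their precursors (chr10:87693642-87772904, plus strand). *Igf1* measured 209, 164, and 181 CPM with vehicle, 237, 206, and 211 CPM with spironolactone, and 160, 160, and 152 CPM with prednisolone. Prednisolone libraries were the lowest of all, and spironolactone libraries overlapped only the highest vehicle library. *Igf1* was 1.39-fold higher with spironolactone than with prednisolone (0.47 ± 0.10, adjusted *P* = 0.0182), with values of -0.23 ± 0.10 for prednisolone (adjusted *P* = 0.307) and 0.24 ± 0.10 for spironolactone against vehicle (adjusted *P* = 0.482). The difference between the drugs was not called without spironolactone replicate 3 (adjusted *P* = 0.0531) or prednisolone replicate 1 (0.0667), 2 (0.0720), or 3 (0.0735). Fibro-adipogenic progenitors also make *Igf1*, and 7 of their genes summed to 619 to 879 CPM with vehicle, 811 to 1194 CPM with spironolactone, and 773 to 877 CPM with prednisolone. None of these 7 genes was called by edgeR in any comparison. At an unadjusted *P* under 0.05 were 3 between the drugs, 5 with spironolactone against vehicle, and 0 with prednisolone against vehicle. All 7 were higher with spironolactone than with vehicle (median log2 fold change 0.55). Fibro-adipogenic progenitors lack CD45, a marker of the sort, and the part of any carried-over RNA of theirs in the *Igf1* result was not tested.

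*Gdf3* encodes a TGF-β family ligand that repair macrophages release (chr6:122582317-122587197, minus strand), and its level was low. *Gdf3* measured 5.38, 5.05, and 6.11 CPM with vehicle, 7.53, 5.60, and 9.37 CPM with spironolactone, and 4.92, 2.72, and 4.31 CPM with prednisolone, from 89 to 296 counts a library. The prednisolone libraries lay below all others. *Gdf3* was 1.88-fold higher with spironolactone than with prednisolone (0.91 ± 0.24, adjusted *P* = 0.0445), while prednisolone gave -0.47 ± 0.24 (adjusted *P* = 0.413) and spironolactone 0.44 ± 0.24 (adjusted *P* = 0.607) against vehicle. The call was kept in only 2 of the 9 fits that left out a library, namely with vehicle replicate 1 or spironolactone replicate 2 removed. It was lost without vehicle replicate 2 (adjusted *P* = 0.0524) or 3 (0.0506), without spironolactone replicate 1 (0.0763) or 3 (0.187), and without prednisolone replicate 1 (0.0676), 2 (0.164), or 3 (0.0984). It was also lost with limma-voom (adjusted *P* = 0.0540), library totals (0.0509), or robust=FALSE (0.0505). *Gdf3* shares 184 exon bases with *Dppa3* on the opposite strand.

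*Gdf15* encodes a stress-induced cytokine (chr8:71082038-71091537, minus strand). *Gdf15* measured 166, 112, and 108 CPM with vehicle, 102, 73.8, and 107 CPM with spironolactone, and 55.5, 46.4, and 29.4 CPM with prednisolone. The groups did not overlap: every vehicle library lay above every spironolactone library, and every spironolactone library above every prednisolone library. Against vehicle, *Gdf15* was 2.93-fold lower with prednisolone (-1.55 ± 0.27, adjusted *P* = 0.0283). Spironolactone gave -0.45 ± 0.26 (adjusted *P* = 0.663), and spironolactone against prednisolone gave 1.11 ± 0.26 (adjusted *P* = 0.0511). The prednisolone call was lost without vehicle replicate 1 (adjusted *P* = 0.0503), 2 (0.0790), or 3 (0.0512), spironolactone replicate 1 (0.0572) or 3 (0.0528), or prednisolone replicate 2 (0.123), and with edgeR on 2 groups (0.0550). Between the drugs, *Gdf15* was called without vehicle replicate 1 (adjusted *P* = 0.0413) or prednisolone replicate 1 (0.0462), and in 6 of 9 other settings. Its 391 shared exon bases lie with *Gm34154* on the opposite strand.

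Among the surface molecules, *Gpnmb* encodes a glycoprotein of the cell surface and lysosome that marks phagocytic macrophages (chr6:49013426-49047863, plus strand). *Gpnmb* measured 6008, 4612, and 4864 CPM with vehicle, 6179, 4849, and 4625 CPM with spironolactone, and 5985, 6839, and 6836 CPM with prednisolone. In each of the vehicle and spironolactone groups, 1 library reached the lowest prednisolone library, so that the groups overlapped. Prednisolone gave 0.34 ± 0.13 against vehicle (adjusted *P* = 0.249), and spironolactone gave 0.016 ± 0.13 (adjusted *P* = 0.985). Spironolactone against prednisolone gave -0.33 ± 0.13 (adjusted *P* = 0.164). Without vehicle replicate 1, the prednisolone value was 0.47 and was called (adjusted *P* = 0.0457). With no filter beyond 1 count, *Gpnmb* was called against vehicle with prednisolone (adjusted *P* = 0.0413) and between the drugs (0.0386).

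*Trem2*, the lipid receptor itself (chr17:48653429-48661175, plus strand), measured 515, 534, and 493 CPM with vehicle, 567, 543, and 567 CPM with spironolactone, and 396, 462, and 467 CPM with prednisolone. The groups did not overlap, with spironolactone libraries highest and prednisolone libraries lowest. *Trem2* was 1.27-fold higher with spironolactone than with prednisolone (0.34 ± 0.09, adjusted *P* = 0.0483), with -0.22 ± 0.09 for prednisolone (adjusted *P* = 0.289) and 0.12 ± 0.09 for spironolactone against vehicle (adjusted *P* = 0.741). The call between the drugs was close to the threshold: it was kept without vehicle replicate 1 and lost without any other library, at adjusted *P* values from 0.0632 (without vehicle replicate 3) to 0.189 (without prednisolone replicate 1). It was also lost with RLE normalization (adjusted *P* = 0.0520), library totals (0.0735), no filter beyond 1 count (0.0560), or robust=FALSE (0.0512).

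*Cd9* encodes a tetraspanin that organizes integrins at the plasma membrane (chr6:125437210-125471778, minus strand). *Cd9* measured 367, 425, and 487 CPM with vehicle, 388, 356, and 379 CPM with spironolactone, and 488, 559, and 511 CPM with prednisolone. Every prednisolone library lay above every other library, and the spironolactone libraries overlapped the lowest vehicle library. *Cd9* was 1.39-fold lower with spironolactone than with prednisolone (-0.47 ± 0.11, adjusted *P* = 0.0240). Prednisolone gave 0.29 ± 0.11 (adjusted *P* = 0.229) and spironolactone -0.19 ± 0.11 (adjusted *P* = 0.643) against vehicle. The call was lost without spironolactone replicate 2 (adjusted *P* = 0.0919) or 3 (0.0802), or without prednisolone replicate 1 (0.0559), 2 (0.108), or 3 (0.0645). *Cd63*, a tetraspanin of late endosomes, lysosomes, and exosomes (chr10:128731528-128748709, plus strand), measured 257, 275, and 316 CPM with vehicle, 284, 298, and 330 CPM with spironolactone, and 284, 361, and 321 CPM with prednisolone. The groups overlapped in each comparison, and no value passed the test: 0.19 ± 0.11 for prednisolone (adjusted *P* = 0.488), 0.11 ± 0.11 for spironolactone (adjusted *P* = 0.844), and -0.08 ± 0.11 between the drugs (adjusted *P* = 0.724).

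*Fabp5*, a cytosolic carrier of fatty acids (chr3:10077602-10081674, plus strand), measured 459, 504, and 624 CPM with vehicle, 643, 527, and 630 CPM with spironolactone, and 393, 303, and 322 CPM with prednisolone. All prednisolone libraries lay below all others, while vehicle and spironolactone libraries overlapped. *Fabp5* was 1.77-fold higher with spironolactone than with prednisolone (0.82 ± 0.13, adjusted *P* = 0.00490), and this was the call among the members that was kept in all 9 fits that left out a library (adjusted *P* = 0.00104 to 0.0366) and in all 9 other settings. Against vehicle, *Fabp5* fell 1.56-fold with prednisolone (-0.64 ± 0.13, adjusted *P* = 0.0282) and gave 0.18 ± 0.13 with spironolactone (adjusted *P* = 0.729). The fall with prednisolone was lost without vehicle replicate 2 (adjusted *P* = 0.0664) or 3 (0.0978), or prednisolone replicate 2 (0.162) or 3 (0.114). Endothelial cells also express *Fabp5*, and 6 endothelial genes summed to 49.1 to 85.3 CPM with vehicle, 108 to 168 CPM with spironolactone, and 62.3 to 86.3 CPM with prednisolone. Endothelial cells lack CD45 and CD11b, the markers of the sort. Per the study's methods, live and dead cells were not told apart in sorting. The part of any carried-over endothelial RNA in the *Fabp5* result was not tested.

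**Figure D2:**
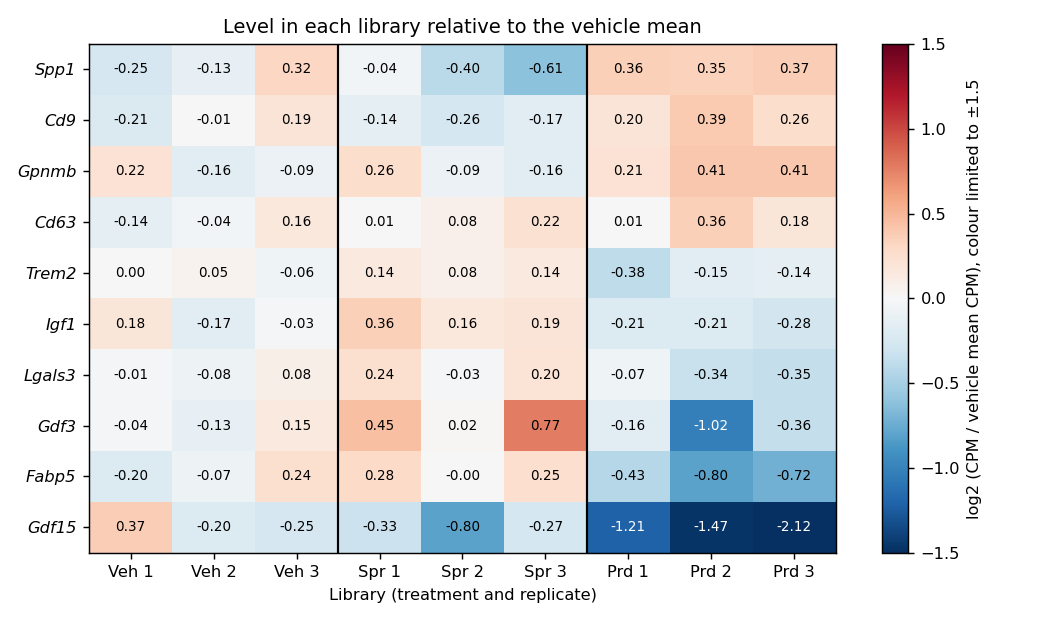
Level of each gene in each library as log2 of its CPM over the vehicle mean (color scale limited to ±1.5, value printed in the cell), with libraries in columns by group and replicate. *Gdf15* reached -2.12 in prednisolone replicate 3, and *Spp1* lay between 0.35 and 0.37 in the prednisolone libraries.

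*Gdf15* and *Fabp5* fell with prednisolone relative to vehicle, and no member rose past the threshold. Thus, 2 of the 10 genes were called, both lower, where 0.758% of the 16618 genes tested were called lower and 1.76% in either direction. In *Spp1* and *Cd9* all prednisolone libraries lay above vehicle, and in *Igf1*, *Gdf3*, *Gdf15*, *Trem2*, and *Fabp5* all lay below. These 7 of 10 genes without overlap compare with 19.7% of genes tested. The median log2 fold change of the 10 was -0.23, and that of all genes tested was -0.01. Among the 1986 genes with a mean level of at least 100 CPM, 2.92% were called, and 1 of the 8 members at that level. Sums of some marker lists did not overlap in this comparison. Genes of dividing cells summed to 662 to 697 CPM with prednisolone and 378 to 554 CPM with vehicle (2 of 6 called, both higher), skeletal muscle genes to 296 to 461 CPM and 185 to 282 CPM (1 of 6 tested called, higher), and lymphocyte genes to 1.34 to 2.58 CPM and 2.83 to 5.39 CPM (0 of 6 called by edgeR, 3 at an unadjusted *P* under 0.05). The dendritic cell list summed to 564 to 733 CPM and 376 to 398 CPM, but most of this sum was *Itgax*, the 1 of its 6 genes called, which macrophages also express and which is counted again among the genes of lipid-associated macrophages. Of its other genes, *Flt3* (22.8 and 15.9 CPM with prednisolone and vehicle), *Zbtb46* (9.73 and 6.54 CPM), and *Cd209a* (43.4 and 28.0 CPM) were higher in every prednisolone library without passing the test (adjusted *P* = 0.0536, 0.212, and 0.213). The groups overlapped for *Xcr1* (3.30 and 3.20 CPM) and *Clec9a* (3.15 and 3.67 CPM). Neutrophil sums overlapped, at 293 to 402 CPM with prednisolone and 230 to 2240 CPM with vehicle. Sums of the 6 macrophage genes did not overlap by a narrow margin, at 5871.8 to 6561.7 CPM with prednisolone and 6562.2 to 6875.3 CPM with vehicle. None of the 6 was called by edgeR, and 1 was at an unadjusted *P* under 0.05. The part of these marker lists in the member results was not tested. Neither member was called without vehicle replicate 2, vehicle replicate 3, or prednisolone replicate 2.

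More members were called between spironolactone and prednisolone than for either drug against vehicle. *Fabp5*, *Igf1*, *Gdf3*, and *Trem2* were higher with spironolactone, and *Spp1* and *Cd9* were lower. The 6 of 10 members called compare with 5.17% of genes tested (2.38% higher and 2.79% lower), and with 8.01% of the genes at 100 CPM or more, where 5 of 8 members were called. For 8 of 10 members the drug groups did not overlap, against 30.3% of genes tested. The median log2 fold change of the members was 0.36, against 0.03 over all genes. *Lgals3*, *Trem2*, *Igf1*, *Gdf3*, and *Fabp5* had the same order of group means, spironolactone over vehicle over prednisolone, and *Spp1* and *Cd9* the opposite order. The number of members called was 1 to 8 over the fits that left out a library, with 1 without spironolactone replicate 3, prednisolone replicate 2, or prednisolone replicate 3, 2 without prednisolone replicate 1, 3 without spironolactone replicate 2, and 8 without vehicle replicate 1. Leaving out vehicle replicate 2 or 3 left 4 members called, with *Gdf3* and *Trem2* lost in both cases at nearly the same log2 fold changes (*Gdf3* 0.91 and 0.90 against 0.91 with all libraries, *Trem2* 0.34 and 0.33 against 0.34).

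Markers of other cells also separated the drug groups, where 5.17% of all genes tested were called. Endothelial genes were higher with spironolactone (2 of 6 called), as were genes of erythroid cells, at 186 to 305 CPM against 37.1 to 79.7 CPM (4 of 5 called), and lymphocytes, at 7.14 to 11.0 CPM against 1.34 to 2.58 CPM (3 of 6 called). Neutrophil genes summed to 572 to 1617 CPM with spironolactone and 293 to 402 CPM with prednisolone (0 of 6 called by edgeR, 2 at an unadjusted *P* under 0.05). Dividing cell genes were at 450 to 518 CPM against 662 to 697 CPM (3 of 6 called lower). The dendritic cell list was at 337 to 513 CPM against 564 to 733 CPM, again mostly *Itgax*, the 1 gene called lower (group means of 356 and 569 CPM). Its other 5 genes did not pass the test (adjusted *P* from 0.0853 to 0.922). Means with spironolactone and prednisolone were 5.85 and 3.30 CPM for *Xcr1*, 4.69 and 3.15 CPM for *Clec9a*, 51.6 and 43.4 CPM for *Cd209a*, 23.3 and 22.8 CPM for *Flt3*, and 8.56 and 9.73 CPM for *Zbtb46*. Macrophage genes overlapped, at 6388 to 6725 CPM against 5872 to 6562 CPM (0 of 6 called by edgeR, 3 at an unadjusted *P* under 0.05). *Itgam*, which encodes the CD11b used in the sort, was lower with spironolactone (-0.43, adjusted *P* = 0.0353). The part of these differences in the member results was not tested.

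Spironolactone against vehicle gave no call among the members with edgeR, DESeq2, or limma-voom. *Igf1* was the 1 member at an unadjusted *P* under 0.05 by edgeR. The background was low, with 0.0181% of genes tested called. In 2 of 10 members the groups did not overlap, all *Trem2* libraries being higher and all *Gdf15* libraries lower, where 13.5% of genes tested did not overlap. The median log2 fold change of the members was 0.11, against 0.00 over all genes. With no filter beyond 1 count, *Gdf15* was called lower by edgeR (adjusted *P* = 0.00556) at nearly the same log2 fold change (-0.44 against -0.45). Between the drugs, that setting moved its adjusted *P* from 0.0511 to 1.05e-19, again at nearly the same value (1.09 against 1.11). Calls made only in that setting thus came without a larger change in *Gdf15*, and the cause was not tested. Sums of 4 marker lists did not overlap here, each higher with spironolactone than with vehicle: erythroid (186 to 305 against 70.2 to 135 CPM), endothelial (108 to 168 against 49.1 to 85.3 CPM), skeletal muscle (348 to 574 against 185 to 282 CPM), and lymphocyte genes (7.14 to 11.0 against 2.83 to 5.39 CPM). None of their genes was called by edgeR (5, 5, 5, and 4 at an unadjusted *P* under 0.05). Sums of the 7 fibro-adipogenic genes overlapped (811 to 1194 against 619 to 879 CPM). All 7 were higher with spironolactone, 5 at an unadjusted *P* under 0.05 by edgeR and none called. The part of these lists in the member values was not tested.

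**Figure D3:**
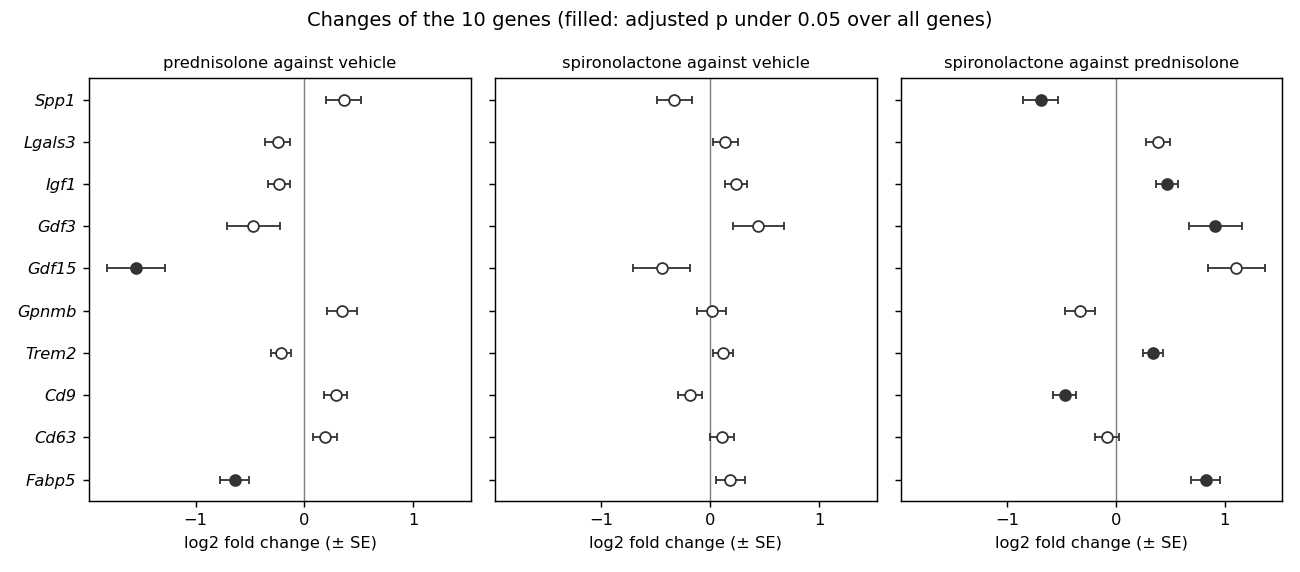
Log2 fold change ± SE of each gene (x axis) in the 3 comparisons, from the edgeR fit of all 9 libraries. Filled points had an adjusted *P* under 0.05: *Gdf15* and *Fabp5* against vehicle with prednisolone, none with spironolactone, and 6 genes between the drugs.

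The partners and targets of these genes were read from 8 lists of 78 genes, 74 of which were tested. With prednisolone, 5 of the 74 rose and 1 fell relative to vehicle, where 1.76% of all genes tested were called. DESeq2 called 8 higher and 6 lower, and no filter beyond 1 count gave 9 and 5. Leaving out a library gave 2 (prednisolone replicate 2) to 13 calls (vehicle replicate 1), with 3 without vehicle replicate 2 or prednisolone replicate 3 and 4 without vehicle replicate 3. Between the drugs, 5 were higher and 10 lower with spironolactone, against 5.17% of all genes tested. No filter beyond 1 count gave 14 higher and 12 lower. Leaving out a library gave 6 (prednisolone replicate 2) to 22 calls (vehicle replicate 1), with 7 without spironolactone replicate 3 or prednisolone replicate 3, 8 without spironolactone replicate 2, and 10 without prednisolone replicate 1. Against vehicle, spironolactone gave 0 calls with edgeR (14 at an unadjusted *P* under 0.05), 0 with limma-voom, 2 with DESeq2, and 7 with no filter beyond 1 count. In the list of the TREM2 pathway, 1 of 9 genes was called. *Clu*, which encodes a lipoprotein-associated chaperone that binds TREM2, was at 8.92 ± 0.91 CPM (SD, n = 3) with spironolactone and 3.22 ± 0.61 CPM with prednisolone (1.47 ± 0.22, edgeR adjusted *P* = 0.00327). The adaptor *Tyrobp* gave 0.37 ± 0.14 in that comparison (adjusted *P* = 0.125) and was looked at after its values were seen.

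Of 20 other genes of lipid-associated macrophages, 3 were called higher and none lower with prednisolone, where 1.76% of all genes tested were called. Between the drugs, 3 were called higher and 5 lower with spironolactone, against 2.38% and 2.79% of all genes tested. *Ctsk*, encoding the collagen-degrading protease cathepsin K, rose from 47.1 ± 13.8 CPM with vehicle to 131 ± 22.8 CPM with prednisolone (1.47 ± 0.21, adjusted *P* = 0.00816), and was lower with spironolactone than with prednisolone (-1.69 ± 0.21, adjusted *P* = 0.00281). *Mmp12*, macrophage elastase, rose from 572 ± 11.0 to 1099 ± 241 CPM (0.94 ± 0.13, adjusted *P* = 0.00376) and gave -0.67 ± 0.13 between the drugs (adjusted *P* = 0.0129). These matrix proteases thus had their highest level with prednisolone, where *Fabp5* had its lowest. The fatty acid carrier *Fabp4*, a relative of *Fabp5*, was at 122 ± 25.1 CPM with spironolactone and 56.3 ± 12.2 CPM with prednisolone (1.12 ± 0.18, adjusted *P* = 0.00782). Endothelial genes were higher in the same direction (2 of 6 called), and their part in the *Fabp4* result was not tested. *Lgals1*, encoding galectin-1, was also higher with spironolactone than with prednisolone (0.51 ± 0.10, adjusted *P* = 0.0120). The remaining calls, chosen after their values were seen, were *Itgax*, which encodes the integrin CD11c (0.80 ± 0.15 with prednisolone, adjusted *P* = 0.0197; -0.68 ± 0.15 between the drugs, adjusted *P* = 0.0238), the acid phosphatase gene *Acp5* (-0.89 ± 0.21, adjusted *P* = 0.0429), the proton pump subunit gene *Atp6v0d2* (-0.45 ± 0.11, adjusted *P* = 0.0338), and the lysosomal protease gene *Ctsd* (0.36 ± 0.10, adjusted *P* = 0.0469). Some of these calls ended when 1 library was left out. This held for *Mmp12* between the drugs (spironolactone replicate 2 or prednisolone replicate 2, adjusted *P* up to 0.0556), *Lgals1* (spironolactone replicate 3 or prednisolone replicate 2 or 3, up to 0.0670), and *Itgax* (prednisolone replicate 2 or 3 in both comparisons and vehicle replicate 2 or 3 against vehicle, up to 0.117). *Acp5* was lost without vehicle replicate 2, prednisolone replicate 2 or 3, or any spironolactone library (up to 0.133), *Atp6v0d2* without spironolactone replicate 2 or 3 or any prednisolone library (up to 0.151), and *Ctsd* without any library other than vehicle replicate 1 (up to 0.170).

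Of 8 osteopontin receptor genes, 3 were called lower with spironolactone than with prednisolone, the direction of *Spp1*. The shares over all genes tested were 2.79% called lower and 5.17% in either direction between the drugs, and 1.76% with prednisolone against vehicle. No osteopontin receptor gene was called against vehicle by edgeR (4 with prednisolone and 2 with spironolactone at an unadjusted *P* under 0.05). *Itga5* and *Itgb1*, whose products pair as an integrin, gave -0.45 ± 0.08 (adjusted *P* = 0.00782) and -0.33 ± 0.08 (adjusted *P* = 0.0316). *Cd44* gave -0.58 ± 0.11 (adjusted *P* = 0.0122), from 1082 ± 84.1 CPM with prednisolone to 726 ± 58.8 CPM with spironolactone. The *Itgb1* call was lost without any 1 of the spironolactone or prednisolone libraries (adjusted *P* up to 0.106), and that of *Cd44* without spironolactone replicate 3 or prednisolone replicate 1 (up to 0.0684). In the IGF list, 1 of 9 tested genes was called. *Igf2r*, whose product clears IGF2 and sorts lysosomal enzymes, rose with prednisolone (0.61 ± 0.14, adjusted *P* = 0.0393) and was lower with spironolactone than with prednisolone (-0.80 ± 0.14, adjusted *P* = 0.00696). Its rise against vehicle was lost without vehicle replicate 2 or 3, spironolactone replicate 2, or any prednisolone library (adjusted *P* up to 0.146). The GDF receptor list had 3 of 6 genes tested and no call by edgeR in any comparison. *Gfral*, the GDF15 receptor gene, was at 0 in all 9 libraries. The activin receptor genes *Acvr2a* and *Acvr2b* gave 0.31 ± 0.19 and -0.02 ± 0.21 with prednisolone (adjusted *P* = 0.493 and 0.984).

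Among 12 regulators of macrophage repair, *Cebpb*, a transcription factor, fell with prednisolone from 1203 ± 209 to 662 ± 89.9 CPM (-0.86 ± 0.15, adjusted *P* = 0.0108). *Prkaa1*, encoding an AMPK catalytic subunit, was lower with spironolactone than with prednisolone (-0.38 ± 0.08, adjusted *P* = 0.0220). *Tfeb*, a regulator of lysosomal genes and 1 of 4 MiT/TFE factors listed, was higher with spironolactone than with prednisolone (0.40 ± 0.08, adjusted *P* = 0.0167). Of 9 other tetraspanins, *Cd81* rose with prednisolone (0.69 ± 0.14, adjusted *P* = 0.0264). Over all genes tested, 1.76% were called with prednisolone against vehicle and 5.17% between the drugs. The calls of *Cebpb* (up to 0.0857), *Cd81* (up to 0.149), and *Tfeb* (up to 0.0876) were lost without prednisolone replicate 2 or 3, that of *Cd81* also without vehicle replicate 2, and that of *Tfeb* also without spironolactone replicate 2 or 3. *Prkaa1* was lost without any 1 of the spironolactone or prednisolone libraries (adjusted *P* up to 0.0885). Of the 21 companion calls, 7 were kept in every fit that left out a library: *Ctsk* in both comparisons, *Mmp12* against vehicle, and *Clu*, *Fabp4*, *Igf2r*, and *Itga5* between the drugs. Under other settings the prednisolone calls of *Ctsk* (replicate block, adjusted *P* = 0.0507) and *Igf2r* (robust=FALSE, 0.0513) were lost, as was *Ctsd* (RLE normalization or library totals, up to 0.0617).

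**Figure D4:**
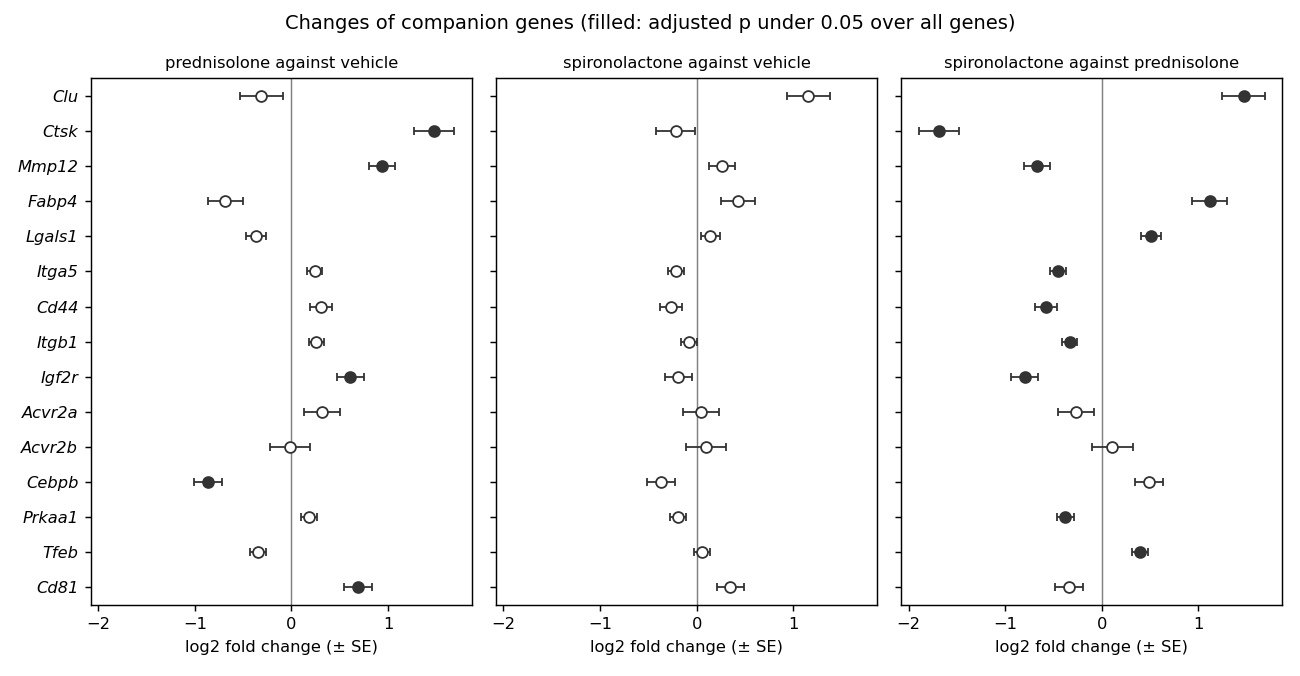
Log2 fold change ± SE (x axis) of 15 genes named from the companion lists in the 3 comparisons, filled where the edgeR adjusted *P* was under 0.05. *Ctsk* and *Mmp12* lie to the right with prednisolone and to the left between the drugs, and no point is filled for spironolactone against vehicle.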

How the data were processed

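Per the labels and the study's methods, RNA from CD45+CD11b+ cells was sequenced on a DNBseq platform (3 libraries per group, 3 mice pooled per library). The authors made the deposited counts, whole reads per gene without normalization, by alignment to mm39 with HISAT2 2.2.1 and counting with HTSeq 0.11.3 (versions from the submitters' processing notes, which also name DESeq2 1.32.0). The annotation release, the strand setting, and sequencing batches are not given in the sources used here. Tables of the authors' comparisons (fold changes and p-values) were not used. Lines without a gene name (17.2% to 21.8% of the total) stayed out of all fits.

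The software was R 4.3.3 with DESeq2 1.42.0, edgeR 4.0.16, and limma 3.58.1. All 9 libraries entered 1 quasi-likelihood fit of edgeR (TMM, robust=TRUE, filterByExpr with minimum count 10 and total 15), with two-sided F tests, Benjamini-Hochberg adjustment over the 16618 genes tested (33941 left out), and a threshold of 0.05. The SE is the log2 fold change divided by the root of F. Levels are TMM-normalized CPM. TPM used exon lengths from GENCODE on GRCm39 (40043 genes, 90.9% to 94.9% of counts). Positions are from the same annotation. At these depths counting error was small next to the spread between pools.

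Members and lists were chosen with earlier results of these data known. Named genes are all 10 members and, from each companion list, up to 4 genes past the threshold with the smallest adjusted p, or with none, up to 2 by p. Alternatives were DESeq2, limma-voom, edgeR on 2 groups, RLE or library totals, robust=FALSE, a replicate block, no filter beyond 1 count, a minimum of 10 counts per library, and leaving out each library. The fit was tested on simulated data beforehand.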

Additional observations from a re-analysis of the deposited data

How the results depend on the processing

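Of 270 member fold changes under other settings, 249 kept their direction and side of the threshold, 8 were weaker, 13 stronger, and none reversed. Of 270 without 1 library, 223 were kept, 39 were weaker, 4 stronger, and 4 reversed: *Gpnmb* with spironolactone against vehicle ranged from -0.12 (spironolactone replicate 1 removed) to 0.14 and was also negative with vehicle replicate 2 (-0.059) or 3 (-0.030) removed, and *Cd63* between the drugs ranged from -0.17 to 0.0067 (prednisolone replicate 2 removed). For prednisolone against vehicle, 293 genes were called, 686 with DESeq2, 1019 with no filter beyond 1 count, and 69 to 826 without 1 library, and members called were 2, 1 with edgeR on 2 groups, 4 with no filter beyond 1 count, and 0 to 2 without 1 library. For spironolactone against vehicle, 3 genes were called, 263 with DESeq2, 0 with limma-voom or robust=FALSE, 528 with no filter beyond 1 count, and 0 to 34 without 1 library, and members called were 0, and 1 with no filter beyond 1 count. Between the drugs, 859 genes were called, 1594 with DESeq2, 1598 with edgeR on 2 groups, 1940 with no filter beyond 1 count, and 232 to 1898 without 1 library, and 6 members, 1 to 8 without 1 library. Library totals gave 327 higher and 590 lower genes between the drugs, against 395 and 464. The causes were not tested.

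Same-numbered libraries of different groups did not deviate together in every pair (r = -0.038 to 0.151 over 9 pairs). Pairs of different numbers gave -0.168 to 0.044 (18 pairs). Vehicle and spironolactone replicates 1 (0.117) and replicates 3 (0.151) lay above all of these. The numbers were not taken to pair libraries in the main fit, and whether some libraries shared a batch was not tested. With the replicate block, the 3 comparisons gave 336, 8, and 1082 genes and 2, 0, and 8 members called; the members added between the drugs were *Lgals3* and *Gdf15*. With 3 pools per group, the edgeR tests set each difference against a spread between pools that is estimated over all groups and shared across genes. The spread between single mice was not measured. A gene counted 89 times, the lowest count of *Gdf3*, carries more counting error than the other members.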
